A study of Mus musculus with 14 samples.

Results

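The CC chemokines are small secreted proteins that attract leukocytes, and 8 of their ligand genes were examined here in the mouse left ventricle: Ccl2, Ccl6, Ccl7, Ccl8, Ccl9, Ccl11, Ccl12 and Ccl24. The genes were chosen by name as CC ligands among the 49315 genes of the count table, with earlier results of these data known. Of these members, 8 of 8 had enough reads to be tested, and of 16 other CC ligands listed 3 had. In all, 15292 genes were tested. RNA-Seq was performed on left ventricles of male mice that were wild type (WT) or carried the HCN4F knock-in, which exchanges a tyrosine for a phenylalanine through exon 4 of Hcn4, the gene of a pacemaker channel, and increases the activity of that channel. Mice of both genotypes were operated at 10 to 12 weeks of age and received either transverse aortic constriction (TAC), which loads the left ventricle with pressure and was calibrated with a 27-gauge needle, or Sham surgery without the constriction. Hearts were taken 5 weeks later. The libraries comprised 4 WT-Sham, 4 HCN4F-Sham, 4 HCN4F-TAC and 2 WT-TAC samples (replicates 2 and 3), labelled as biological replicates. Further samples of WT-TAC were not analysed here. Whether the knock-in mice carried 1 or both altered alleles is not given in the sources used here.

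CC chemokines take their name from a pair of neighbouring cysteines near the start of the mature protein, and they act through G protein-coupled receptors on leukocytes. Ccl2, Ccl7 and Ccl12 bind the receptor Ccr2 and draw inflammatory monocytes out of the blood, and Ccl8 is a close relative of theirs. Ccl11 and Ccl24 are eotaxins, which bind Ccr3 and attract eosinophils. Ccl6 and Ccl9 are ligands of Ccr1 that macrophages and other myeloid cells make in the mouse. In the heart, Ccl2 is best known for its induction after injury and pressure load, where monocytes enter the muscle and give rise to macrophages.

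On assembly GRCm38, 7 of the 8 genes lie on chromosome 11. Ccl2 (ENSMUSG00000035385, chr11:82035571-82037453, plus strand) is followed at 10.1 kb by Ccl7 (ENSMUSG00000035373, chr11:82045712-82047525), at 22.3 kb by Ccl11 (ENSMUSG00000020676, chr11:82057823-82062955), at 66.3 kb by Ccl12 (ENSMUSG00000035352, chr11:82101845-82103400) and at 79.6 kb by Ccl8 (ENSMUSG00000009185, chr11:82115185-82116799). Distances are between gene starts, and these 5 genes share the plus strand. Ccl9 (ENSMUSG00000019122, chr11:83572919-83578636) and Ccl6 (ENSMUSG00000018927, chr11:83587882-83593087) sit beside each other on the minus strand with the start of Ccl9 1543.1 kb from that of Ccl2. Ccl24 (ENSMUSG00000004814, chr5:135569937-135573049, minus strand) lies apart on chromosome 5. No member shares exon bases with another annotated gene.

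Promoter windows from RefSeq (assembly GRCm38.p6), cut here to the 250 bases before the annotated start, were matched for 4 members, namely Ccl6, Ccl8, Ccl9 and Ccl12. The windows of the neighbours Ccl12 and Ccl8 are shown because Ccl12 was 1 of the 2 members that passed the test after TAC and Ccl8 is the next gene on the same strand. Capitals mark the letters TATAAA.
Ccl12 (chr11:82101595-82101844, plus strand): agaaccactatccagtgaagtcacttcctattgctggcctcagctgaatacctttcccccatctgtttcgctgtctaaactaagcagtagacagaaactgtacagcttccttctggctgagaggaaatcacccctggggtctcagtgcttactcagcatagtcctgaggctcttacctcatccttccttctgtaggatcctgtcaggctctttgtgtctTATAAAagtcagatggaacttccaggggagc
Ccl8 (chr11:82114935-82115184, plus strand): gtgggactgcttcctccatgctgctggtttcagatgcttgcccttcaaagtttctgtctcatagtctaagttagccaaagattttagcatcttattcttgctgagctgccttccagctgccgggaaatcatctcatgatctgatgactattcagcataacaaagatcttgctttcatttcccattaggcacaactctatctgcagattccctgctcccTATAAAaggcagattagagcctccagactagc
The marked letters began 31 bases before the start of Ccl12 and 32 bases before that of Ccl8. TATAAA on either strand was present in 12.4% of the 32851 RefSeq windows of this length. The windows of Ccl12 and Ccl8 were identical at 150 of 230 aligned bases (65.2%), and the other pairs of members at 56.2% to 63.1%. The alignment could place gaps to gain matches, and windows of other genes were not aligned. These shares therefore do not show whether the windows are related. Neither window held the AP-1 letters TGANTCA or a match to the 10-base NF-kB motif, which were found on either strand in 6.75% and 7.25% of all windows. In the window of Ccl9 a match to each was found, TGAATCA at bases -53 to -47 and an NF-kB match at -35 to -26. The window of Ccl6 held none of these 3 motifs. Such letter matches describe the sequence and say nothing of a factor being bound.

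The libraries held 22309914 to 35210939 reads on genes, and 3 reads corresponded to 0.0859 to 0.137 CPM, the reads of a gene relative to the TMM-scaled size of its library, which is the unit of all levels below. Most members were expressed at a low level, so that single values rested on few reads: the lowest count of a member in any library was 2 (Ccl11 and Ccl12) and the highest 561 (Ccl6). The labelled tissue was checked with 7 ventricular cardiomyocyte markers, whose summed level was 51863 to 71691 CPM in the 14 libraries, lowest in HCN4F-TAC (51863 to 58485). A list of 6 atrial markers summed to 19.4 to 37.0 CPM in 13 libraries and to 65.8 CPM in HCN4F-TAC replicate 2. Fold changes that rest on the HCN4F-TAC group are therefore also given from a fit without that library. In whole tissue, fewer cells of a type and less RNA per cell cannot be told apart.

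Ccl6 was the most abundant member in every group when levels were compared per kilobase of exon. Its mean was 6.08 CPM per kb in WT-Sham, 5.07 in WT-TAC, 8.13 in HCN4F-Sham and 6.92 in HCN4F-TAC, and in each group its libraries lay above those of the member ranked second. Ccl9 ranked second in 3 groups, at 2.07 CPM per kb in WT-Sham, 1.93 in WT-TAC and 2.43 in HCN4F-Sham. Below these, neighbours in the order mostly overlapped in their ranges. In WT-Sham the order went on with Ccl11 (1.45), Ccl8 (1.02), Ccl2 (0.851), Ccl7 (0.621), Ccl12 (0.580) and Ccl24 (0.567), and each neighbouring pair overlapped. In HCN4F-TAC Ccl2 ranked second at 3.28 CPM per kb, ahead of Ccl9 (2.78) in 3 of 4 libraries. Ccl11, the third in both Sham groups, ranked last in HCN4F-TAC at 0.258 CPM per kb, below Ccl24 (0.600) in 4 of 4 libraries. The summed CPM of the 8 members, not corrected for length, was 16.8 to 24.1 in WT-Sham, 17.9 and 19.5 in WT-TAC, 22.8 to 36.1 in HCN4F-Sham and 23.8 to 35.5 in HCN4F-TAC. The groups therefore overlapped in the total, except that WT-TAC lay below both HCN4F groups.

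**Figure D1:**
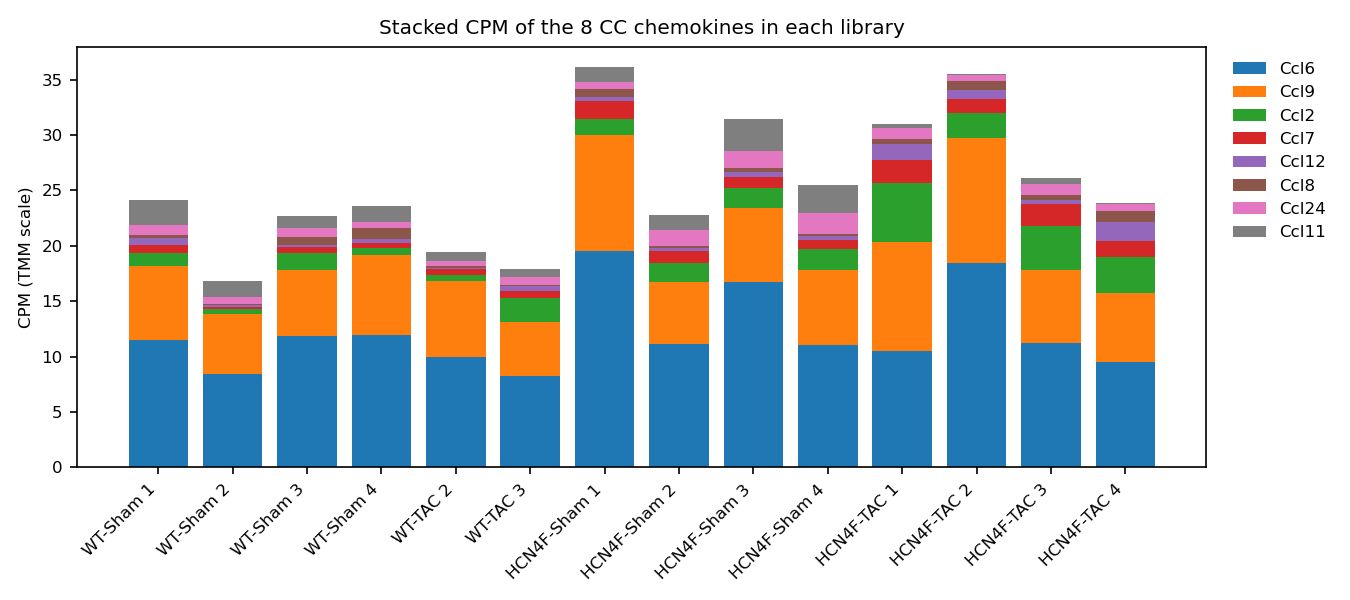
Summed CPM of the 8 CC chemokines in each of the 14 libraries (x axis, group and replicate number), with the contribution of each gene stacked. Ccl6 and Ccl9 make up most of every bar, Ccl11 (top) is thinnest in the HCN4F-TAC libraries, and the totals run from 16.8 CPM in WT-Sham replicate 2 to 36.1 CPM in HCN4F-Sham replicate 1.

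The question of the study's design was how pressure overload alters the ventricle in each genotype. In HCN4F hearts, 2 of 8 members were called after TAC, that is, had an adjusted p under 0.05 together with a log2 change of more than 1 in size: Ccl11 fell and Ccl12 rose. Of all tested genes 2.75% were called in this comparison, 1.58% higher and 1.16% lower. The median log2 fold change of the 8 members was 0.39, against -0.01 over all tested genes. In WT hearts 0 of 8 members were called, where 0.706% of all genes were. There, 0 members had an unadjusted p under 0.05 in edgeR (22% of all tested genes did) and DESeq2 called 0 as well. DESeq2 gave no adjusted p for Ccl12, nor for Ccl2 when fitted to the compared groups only, so it could not call them there. The median of the members was -0.26, against -0.02 over all genes. The WT group after TAC held 2 libraries.

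Ccl2, the founding monocyte attractant, gave 1.22, 0.472, 1.53 and 0.653 CPM in WT-Sham replicates 1 to 4 and 1.47, 1.73, 1.81 and 1.84 CPM in HCN4F-Sham replicates 1 to 4. The values after TAC were 0.534 and 2.15 CPM in WT replicates 2 and 3, and 5.35, 2.30, 4.03 and 3.25 CPM in HCN4F replicates 1 to 4. All 4 HCN4F-TAC libraries were higher than every other library, while the WT-TAC libraries lay on either side of the WT-Sham mean. The log2 fold change after TAC was 1.11 (SE 0.36, 95% interval 0.34 to 1.88) in HCN4F hearts, with an adjusted p of 0.0534 that missed the threshold. The groups did not overlap, as was the case for 7.95% of all genes in the higher direction. This call turned with the analysis, and Ccl2 was called in 11 of 22 alternatives. DESeq2 on all groups gave an adjusted p of 0.0170, edgeR on the compared groups 0.0151 and edgeR without HCN4F-TAC replicate 2 gave 0.0401 (log2 fold change 1.29). Further from the threshold, edgeR without a filter gave 0.167, edgeR without HCN4F-TAC replicate 1 gave 0.144 (log2 fold change 0.89), and edgeR without HCN4F-Sham replicate 1 gave 0.106. In WT hearts the log2 fold change was 0.55 (SE 0.49), and it was 1.16 with replicate 3 and -0.84 with replicate 2 as the only WT-TAC library.

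Ccl12, a mouse ligand of Ccr2 related to Ccl2, rose after TAC in HCN4F hearts. It gave 0.591, 0.109, 0.153 and 0.392 CPM in WT-Sham replicates 1 to 4, 0.0822 and 0.401 CPM in WT-TAC replicates 2 and 3, and 0.376, 0.274, 0.470 and 0.362 CPM in HCN4F-Sham replicates 1 to 4. In HCN4F-TAC replicates 1 to 4 it gave 1.45, 0.790, 0.424 and 1.67 CPM, from 12 to 41 reads. Of these libraries 3 lay above all others of the series, and replicate 3 fell among the Sham libraries. The log2 fold change was 1.50 (SE 0.49, 95% interval 0.47 to 2.53) with an adjusted p of 0.0500, just inside the threshold. Leaving out single libraries ended this call in 9 of 14 cases (WT-Sham replicates 3 and 4, each HCN4F-Sham replicate, and HCN4F-TAC replicates 1, 2 and 4), with adjusted p-values from 0.0523 to 0.147. Without HCN4F-TAC replicate 2, the library high in atrial markers, it was 1.63 with an adjusted p of 0.0640. In WT hearts the log2 fold change was -0.25 (SE 0.73), a sign that turned with single choices. It was 0.35 without WT-TAC replicate 2, 0.22 without WT-Sham replicate 1, 0.36 with the replicate number as a block and -1.87 without WT-TAC replicate 3.

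Ccl7, a further monocyte attractant of the same cluster, gave 0.702, 0.218, 0.612 and 0.457 CPM in WT-Sham replicates 1 to 4 and 0.493 and 0.687 CPM in WT-TAC replicates 2 and 3. In HCN4F-Sham replicates 1 to 4 it gave 1.62, 1.05, 0.976 and 0.876 CPM, and in HCN4F-TAC replicates 1 to 4 it gave 2.07, 1.28, 1.94 and 1.51 CPM. Every HCN4F library lay above every WT library, and the HCN4F groups overlapped through HCN4F-Sham replicate 1. The log2 fold change after TAC was 0.59 (SE 0.27, adjusted p 0.164) in HCN4F hearts and 0.27 (SE 0.41, adjusted p 0.732) in WT hearts. With HCN4F-TAC replicate 2 left out the former was 0.71 with an adjusted p of 0.140.

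Ccl8, the last gene of the cluster, was carried by few reads, 4 to 28 per library. Its lowest, median and highest level was 0.145, 0.511 and 0.915 CPM in WT-Sham, 0.151, 0.254 and 0.715 CPM in HCN4F-Sham and 0.424, 0.607 and 1.02 CPM in HCN4F-TAC, and the WT-TAC libraries gave 0.205 and 0.143 CPM. The WT-Sham libraries alone spanned most of the range of the series. The log2 fold changes after TAC were -1.60 (SE 0.78, adjusted p 0.236) in WT hearts and 0.95 (SE 0.54, adjusted p 0.263) in HCN4F hearts, the latter being 0.87 (adjusted p 0.415) without HCN4F-TAC replicate 2. With single libraries left out the value in HCN4F hearts ran from 0.66 to 1.58, the upper end without HCN4F-Sham replicate 1 (adjusted p 0.0766).

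**Figure D2:**
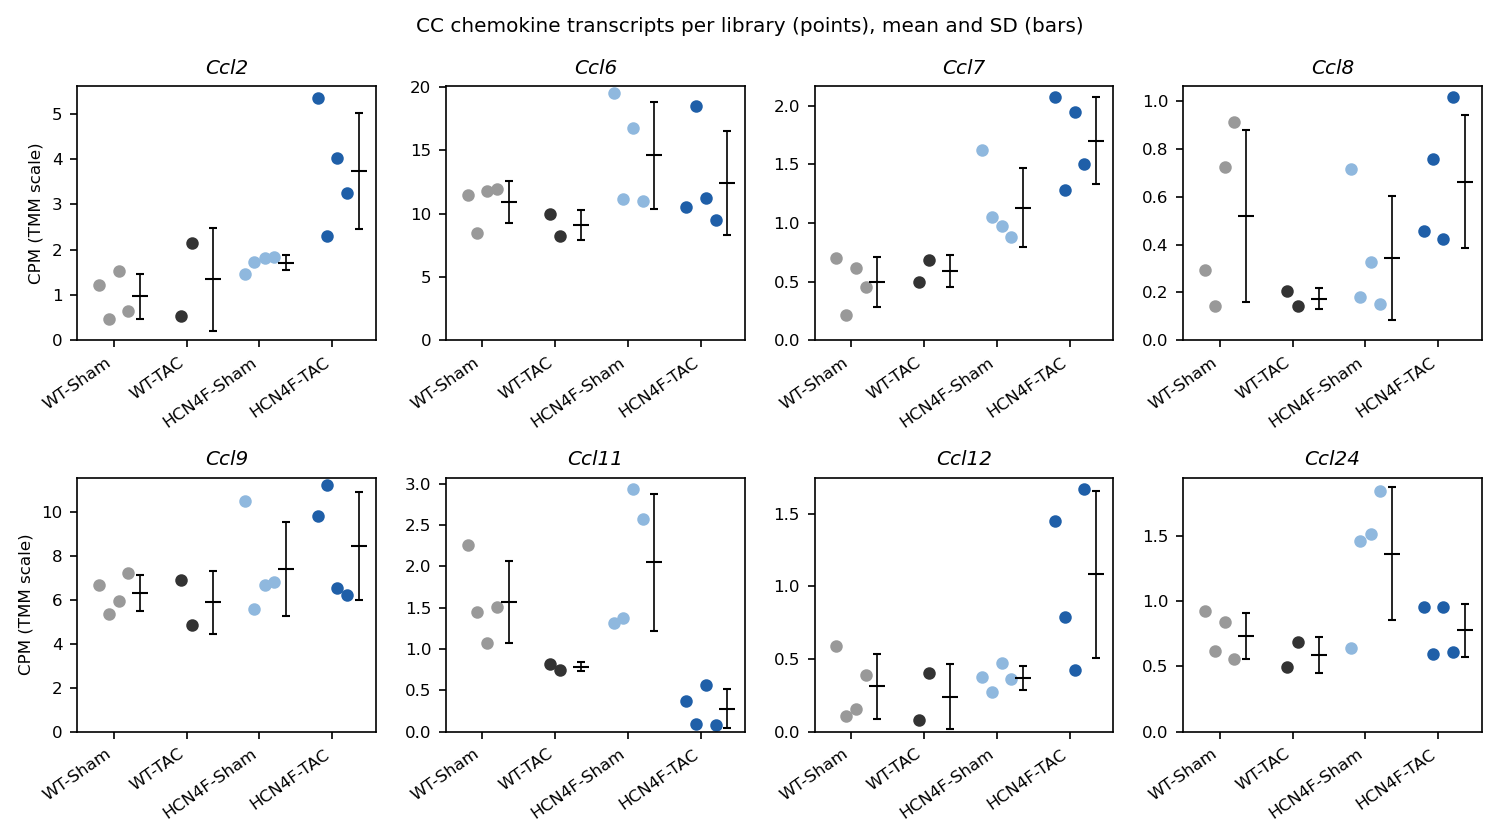
Level of each CC chemokine in CPM (y axis, starting at 0) for every library of the 4 groups; points are libraries and bars give the mean and SD, with n = 4 except WT-TAC with n = 2. The HCN4F-TAC points of Ccl2 (2.30 to 5.35 CPM) sit above all others and those of Ccl11 (0.0814 to 0.565 CPM) below all others, whereas the groups of Ccl6 and Ccl9 overlap.

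Ccl11, the eotaxin inside the monocyte attractant cluster, fell after TAC in HCN4F hearts. It gave 2.25, 1.45, 1.07 and 1.50 CPM in WT-Sham replicates 1 to 4 and 1.32, 1.37, 2.93 and 2.57 CPM in HCN4F-Sham replicates 1 to 4. The values after TAC were 0.822 and 0.744 CPM in WT replicates 2 and 3, and 0.373, 0.0988, 0.565 and 0.0814 CPM in HCN4F replicates 1 to 4. All TAC libraries were lower than all Sham libraries, and the HCN4F-TAC libraries were lower than those of WT-TAC. Reads numbered 9, 3, 16 and 2 in the HCN4F-TAC libraries, so that replicates 2 and 4 stood at or under the limit that a count of 0 allows. In HCN4F hearts the log2 fold change was -2.87 (SE 0.45, 95% interval -3.81 to -1.92, adjusted p 0.000695), which is a 7.29-fold lower level. Lower groups without overlap were seen for 7.16% of all genes in this comparison. The call was kept in 22 of 22 alternative analyses, with log2 fold changes of -3.50 to -2.56, the former without HCN4F-TAC replicate 3 and the latter without HCN4F-TAC replicate 2 (adjusted p 0.00305). In WT hearts the log2 fold change was -1.01 (SE 0.48, 95% interval -2.03 to 0.02) with an adjusted p of 0.232. The WT libraries did not overlap either, but with 2 libraries after TAC this held for 20% of all genes in the lower direction.

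Ccl24, the second eotaxin and the member on chromosome 5, did not pass the test in any comparison of all libraries. It gave 0.640, 1.46, 1.52 and 1.84 CPM in HCN4F-Sham replicates 1 to 4 and 0.954, 0.593, 0.954 and 0.610 CPM in HCN4F-TAC replicates 1 to 4, against a range of 0.555 to 0.924 CPM in WT-Sham and 0.493 and 0.687 CPM in WT-TAC. HCN4F-Sham replicates 2 to 4 were the highest of the series, whereas replicate 1 lay among the libraries of the other groups. The log2 fold change after TAC in HCN4F hearts was -0.82 (SE 0.30, adjusted p 0.0787), and without HCN4F-Sham replicate 1 it was -1.06 with an adjusted p of 0.0120. Leaving out HCN4F-TAC replicate 2 instead gave -0.71 with an adjusted p of 0.201. In WT hearts it was -0.28 (SE 0.40).

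The Ccr1 ligands Ccl6 and Ccl9 did not pass the test after TAC. Ccl6 had means of 10.9 ± 1.66 CPM (SD, n = 4) in WT-Sham, 9.09 ± 1.20 (n = 2) in WT-TAC, 14.6 ± 4.22 (n = 4) in HCN4F-Sham and 12.4 ± 4.10 (n = 4) in HCN4F-TAC. Ccl9 had means of 6.30 ± 0.807, 5.88 ± 1.44, 7.40 ± 2.15 and 8.45 ± 2.47 CPM in the same order. Both genes were highest in single HCN4F libraries, Ccl6 at 19.5 CPM in HCN4F-Sham replicate 1 and Ccl9 at 11.2 CPM in HCN4F-TAC replicate 2. In HCN4F hearts the log2 fold changes were -0.23 for Ccl6 (95% interval -0.71 to 0.26) and 0.19 for Ccl9 (-0.26 to 0.65), and in WT hearts -0.27 (-0.88 to 0.34) and -0.11 (-0.69 to 0.46). With 122 or more reads in every library these 2 genes had the narrowest intervals of the members, and none of the 4 intervals reached a log2 change of 1. In the fit without HCN4F-TAC replicate 2 the values in HCN4F hearts were -0.49 for Ccl6 and 0.020 for Ccl9.

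The design also allowed the genotypes to be compared under the same surgery. Between the Sham groups 0 of 8 members were called, where 0.209% of all tested genes were, and 7 of 8 were higher in HCN4F (median log2 fold change 0.41, against 0.00 over all genes). The members with an unadjusted p under 0.05 were 2, Ccl7 and Ccl24, a threshold that 15.2% of all genes passed. Ccl7 was 0.497 ± 0.212 CPM in WT-Sham and 1.13 ± 0.333 CPM in HCN4F-Sham (SD, n = 4 each), a log2 fold change of 1.18 (SE 0.31, 95% interval 0.51 to 1.84). These groups did not overlap, as was the case for 3.89% of all genes in the higher direction. The adjusted p was 0.0984, while DESeq2 on all groups gave 0.0268 and edgeR without a filter on low counts 0.0279, so that this call turned with the analysis. Ccl24 had a log2 fold change of 0.91 (SE 0.30, adjusted p 0.169) and was called without HCN4F-Sham replicate 1 (1.14, adjusted p 0.0223). For Ccl2 the log2 fold change was 0.84 (SE 0.41, adjusted p 0.346), and for the other members it lay between -0.62 (Ccl8) and 0.42 (Ccl6). Ccl8 was at -1.25 (adjusted p 0.231) without HCN4F-Sham replicate 1.

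After TAC, 0 of 8 members were called between HCN4F and WT, where 0.0719% of all genes were. In this comparison 7 of 8 members were higher in HCN4F (median log2 fold change 0.97, against 0.00 over all genes). The 4 members Ccl2, Ccl7, Ccl8 and Ccl12 were higher without overlap and Ccl11 was lower without overlap, against 11.3% and 11% of all genes in these directions. The same 5 members had an unadjusted p under 0.05, as did 12.5% of all genes. Ccl12 had a log2 fold change of 2.01 (SE 0.65, 95% interval 0.63 to 3.38, adjusted p 0.215), Ccl8 one of 1.94 (SE 0.77, 0.31 to 3.56, adjusted p 0.306) and Ccl2 one of 1.40 (SE 0.46, 0.41 to 2.39, adjusted p 0.228). Ccl7 reached 1.49 (SE 0.37, 0.71 to 2.27), with an adjusted p of 0.111, and it was called by DESeq2 on all groups (0.0206) and by edgeR without a filter (0.0200). Ccl11 was at -1.46 (SE 0.58, adjusted p 0.311), whereas Ccl9 (0.54), Ccl6 (0.46) and Ccl24 (0.37) differed less. Without HCN4F-TAC replicate 3, Ccl12 was called (2.28, adjusted p 0.0431), whereas without WT-TAC replicate 2 it was at 1.40 (adjusted p 0.802) and without WT-TAC replicate 3 at 3.63 (adjusted p 0.263). Without HCN4F-TAC replicate 2 no member was called either, with Ccl12 at 2.12, Ccl8 at 1.85, Ccl7 at 1.60, Ccl2 at 1.57 and Ccl11 at -1.16. In this fit without HCN4F-TAC replicate 2, Ccl24 (0.47), Ccl9 (0.35) and Ccl6 (0.19) were again the smaller values. Without HCN4F-TAC replicate 3, Ccl11 was at -2.10 (adjusted p 0.0721). With WT-TAC replicate 3 as the only WT-TAC library, the log2 fold change of Ccl2 was 0.79, and with replicate 2 alone it was 2.79. Ccl2, Ccl7 and Ccl12 were picked out by the study on a group that includes these samples, so that their direction here is not independent evidence.

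**Figure D3:**
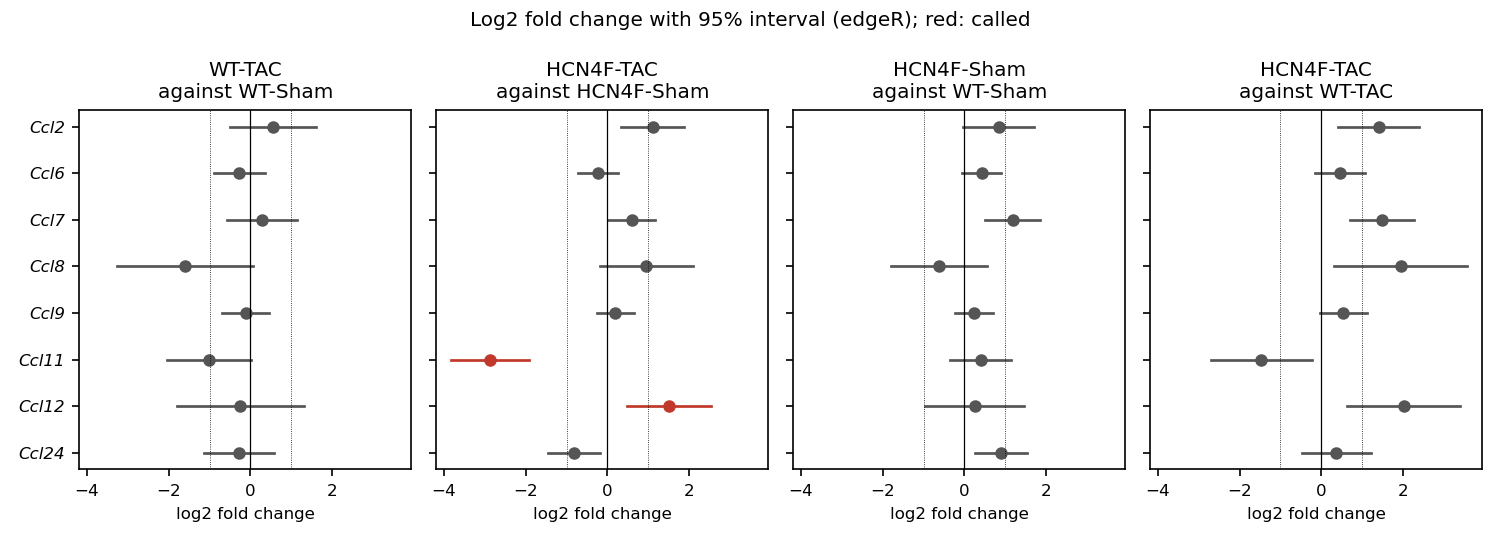
Log2 fold change of each CC chemokine (point) with its 95% interval (line) from the edgeR fit, in the 4 comparisons; dotted lines mark -1 and 1, and red marks members that passed the test. Only Ccl11 (-2.87) and Ccl12 (1.50) in HCN4F-TAC against HCN4F-Sham are red, and the intervals are widest where the 2 WT-TAC libraries enter.

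Whether the response to TAC differed between the genotypes was tested as an interaction. In edgeR 0 of 8 members passed the adjusted threshold, as did 0% of all tested genes, and DESeq2 passed 0 members too. At an unadjusted p under 0.05 there were 2 members, Ccl8 and Ccl11, and 9.27% of all genes. The difference of the log2 fold changes, HCN4F minus WT, was 2.55 for Ccl8 (SE 0.95, adjusted p 0.467), -1.86 for Ccl11 (SE 0.68, adjusted p 0.466), 1.76 for Ccl12 (SE 0.88, adjusted p 0.556) and 0.57 for Ccl2 (SE 0.61, adjusted p 0.815). Without HCN4F-TAC replicate 2 these values were 2.46, -1.57, 1.86 and 0.72, and again 0 members passed. Leaving out each library in turn gave 2.11 to 3.19 for Ccl8, -2.50 to -1.57 for Ccl11, 1.15 to 3.37 for Ccl12 and -0.048 to 1.95 for Ccl2. Both ends for Ccl12 and Ccl2 came from the WT-TAC libraries, the lower end without replicate 2 and the upper without replicate 3, while Ccl8 was at 3.19 without HCN4F-Sham replicate 1 and Ccl11 at -2.50 without HCN4F-TAC replicate 3. The fall of Ccl11 and the rise of Ccl12 in HCN4F hearts were therefore not shown to differ from the responses of WT hearts.

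Along the part of the cluster from Ccl2 to Ccl8, Ccl11 differed in sign from the other 4 members in the comparisons that involve HCN4F-TAC. In HCN4F hearts after TAC, Ccl2 (1.11) and Ccl7 (0.59) on one side and Ccl12 (1.50) and Ccl8 (0.95) on the other had positive log2 fold changes, while Ccl11 between them was at -2.87. Between the TAC groups the same 4 genes were at 1.40 to 2.01 and Ccl11 at -1.46. The comparisons share the HCN4F-TAC libraries. Of these 5 genes Ccl11 and Ccl12 passed the test in the first comparison, and 0 in the second. The other comparisons did not give this order. In WT hearts after TAC, Ccl2 (0.55) and Ccl7 (0.27) were above 0 and Ccl11 (-1.01), Ccl12 (-0.25) and Ccl8 (-1.60) below it, where the signs of Ccl2, Ccl7 and Ccl12 turned with single libraries left out. Between the Sham groups Ccl8 (-0.62) was the member of the cluster below 0, with Ccl2 at 0.84, Ccl7 at 1.18, Ccl11 at 0.40 and Ccl12 at 0.25.

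**Figure D4:**
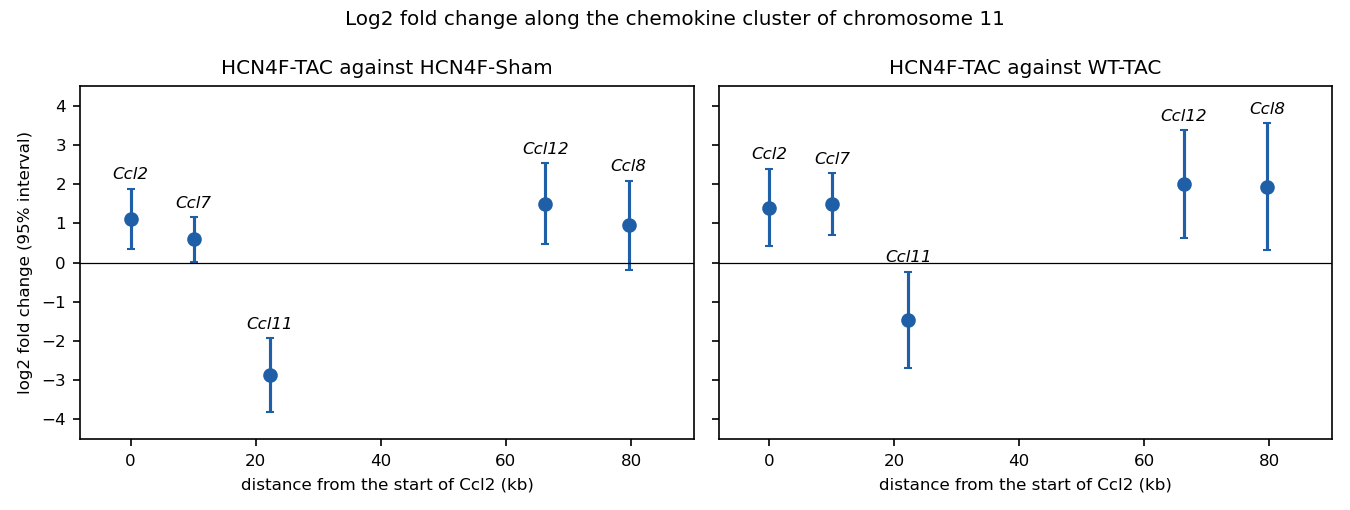
Log2 fold change with 95% interval (y axis) of the 5 members within 79.6 kb on chromosome 11, against the distance of their start from that of Ccl2 in kb (x axis), for HCN4F-TAC against HCN4F-Sham (left) and against WT-TAC (right). Ccl11, at 22.3 kb, is below 0 in both panels and its neighbours on either side are above 0.

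Because Ccl2 and Ccl11 had log2 fold changes of opposite sign in HCN4F hearts, their reads were also compared within each library, which needs no scaling between libraries. The pairs were chosen after these values were seen, so that the ratios restate them as a description. Per read of Ccl11 there were 0.325 to 1.43 reads of Ccl2 in WT-Sham, 0.617 to 1.27 in HCN4F-Sham, 0.650 and 2.88 in WT-TAC replicates 2 and 3, and 14.3, 23.3, 7.13 and 40.0 in HCN4F-TAC replicates 1 to 4. The HCN4F-TAC libraries lay above all others. The ratios of replicates 2 and 4 rest on 3 and 2 reads of Ccl11, and their exact 95% counting intervals ran from 7.66 to 116 and from 10.7 to 336. The ratio of Ccl7 to Ccl11 behaved alike, with 3.44 to 18.5 in HCN4F-TAC and at most 1.23 elsewhere, and with counting intervals of 4.13 to 65.8 and 4.77 to 158 in replicates 2 and 4. For Ccl12 to Ccl11 the range was 0.750 to 20.5 in HCN4F-TAC and at most 0.538 elsewhere, with intervals of 2.43 to 41.5 in replicate 2, of 5.32 to 175 in replicate 4, and of 0.324 to 1.69 in replicate 3. The intervals of HCN4F-TAC replicate 3 overlapped those of other groups for all 3 ratios. That for Ccl2 ran from 4.20 to 12.9, against 1.82 to 4.70 in WT-TAC replicate 3, and that for Ccl7 from 1.94 to 6.43, against 0.768 to 1.98 in HCN4F-Sham replicate 1. Ccl2 to Ccl7, by contrast, was 1.79 to 2.58 in HCN4F-TAC, within the range of 0.907 to 3.13 of the other libraries, and Ccl6 to Ccl9 was 1.07 to 2.50 in the 14 libraries.

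**Figure D5:**
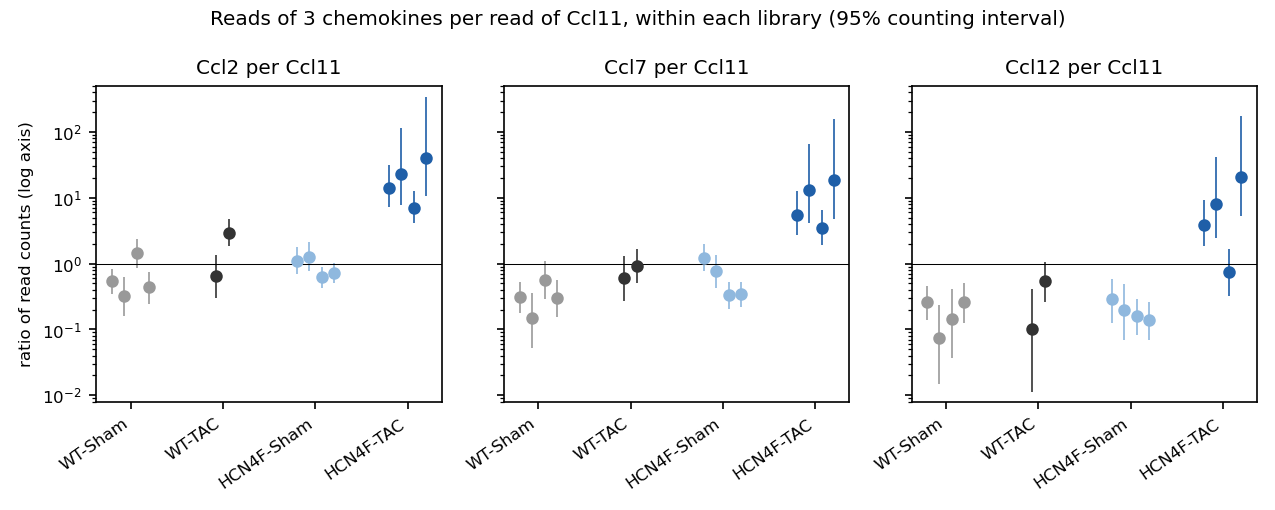
Reads of Ccl2, Ccl7 and Ccl12 per read of Ccl11 in each library (y axis, log scale), by group; vertical lines give the exact 95% counting interval and the horizontal line marks a ratio of 1. The HCN4F-TAC points are the highest in each panel, at 7.13 to 40.0 for Ccl2.

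The members also varied together to a different degree. Over the 14 libraries, Pearson's r of the log2 CPM was 0.89 for Ccl2 and Ccl7, 0.76 for Ccl2 and Ccl12, 0.71 for Ccl7 and Ccl12 and 0.73 for Ccl6 and Ccl9. With the group means taken out these values were 0.67, 0.46, 0.40 and 0.76. Ccl2 and Ccl11 gave -0.49 over the libraries and 0.26 within groups, so that their opposite course was between groups. Ccl11 and Ccl24, the eotaxins, gave 0.50 and 0.61. The genes outside the 8 members with a pattern most like that of Ccl2 included Slc25a40 (r = 0.93, within groups 0.84) and Gipc2 (0.91 and 0.76). For Ccl11 they were Pfkfb1 (0.97 and 0.90), Epb41l4b (0.95 and 0.77) and Lgals4 (0.95 and 0.89). All these values are over the same 14 libraries with shared group differences, and they are given as descriptions.

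Among the other genes of the pathway, 16 further CC ligands were listed and 3 of them had enough reads for a test, of which 0 were called in any comparison. Of 15 CC receptors 8 were tested. Ccr2, the receptor of Ccl2, Ccl7 and Ccl12 on monocytes, had log2 fold changes of -0.46 (adjusted p 0.620) after TAC in WT and 0.28 (adjusted p 0.653) in HCN4F hearts. Between the TAC groups Ccr2 was at 1.73 to 4.31 CPM in HCN4F and 0.780 and 1.43 CPM in WT. These groups did not overlap, as was the case for 11.3% of all genes in the higher direction. The log2 fold change was 1.34 (95% interval 0.31 to 2.37), beside 1.40 for Ccl2 and 1.49 for Ccl7. For Ccr2 the adjusted p of 0.264 missed the threshold. Its log2 fold change was 1.32 without HCN4F-TAC replicate 2, and between the Sham groups Ccr2 was at 0.60 (adjusted p 0.464). Ccr1, the receptor of Ccl6, Ccl7 and Ccl9, was at 0.313 and 0.530 CPM in WT-Sham and HCN4F-Sham and at 0.493 and 1.06 CPM in WT-TAC and HCN4F-TAC, and its log2 fold change of 0.98 in HCN4F hearts (adjusted p 0.0377) fell short of 1. Ackr2, a scavenger that takes up inflammatory CC chemokines, likewise had 0.94 (adjusted p 0.00772). Ccr7, a homing receptor that binds none of the 8 members, was the single receptor called, higher in HCN4F hearts after TAC (1.68, adjusted p 0.00658) from 2 to 12 reads per library. Ccr3, the receptor of Ccl11 and Ccl24, had at most 1 read in any library and was not tested, nor was the decoy receptor Ackr1 with 1 to 11 reads. Without HCN4F-TAC replicate 2 the log2 fold changes in HCN4F hearts were 0.82 for Ccr1 (adjusted p 0.128), 0.81 for Ackr2 (adjusted p 0.0346), 0.27 for Ccr2 (adjusted p 0.730) and 1.63 for Ccr7 (adjusted p 0.0212).

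Genes that act upstream were also followed. Of 13 genes of the NF-kB pathway 13 were tested and 0 were called in the 4 comparisons. After TAC, 11 of 13 were higher in HCN4F hearts (median log2 fold change 0.26) and 12 of 13 in WT hearts (0.17). Of all tested genes 48.9% and 46.5% were higher there. The feedback gene Tnip1 was at 0.67 (adjusted p 0.00189) in HCN4F hearts, which fell short of 1. Of 8 cytokines that induce Ccl2, 3 were tested (Tnf, Il1b and Csf1) and 0 called, with Tnf at 1.34 (adjusted p 0.109) and Il1b at 0.91 (adjusted p 0.254) after TAC in HCN4F hearts. Of 12 genes of the type 2 response, which induces eotaxins, 8 were tested. After TAC in HCN4F hearts 5 of these were higher and 3 lower (median log2 fold change 0.10). The receptor gene Il13ra1 was higher at 0.72 (adjusted p 0.000244), which fell short of 1. Retnla, a product of alternatively activated macrophages, fell in HCN4F hearts after TAC (log2 fold change -1.95, adjusted p 0.000200) and was at -1.18 (adjusted p 0.0515) in WT hearts. Without HCN4F-TAC replicate 2 the values in HCN4F hearts were -1.82 for Retnla (adjusted p 0.00117) and 0.88 for Il1b (adjusted p 0.379), and Tnf had too few reads for a test. No other gene of this list was called, and Il13 had 0 reads in all libraries.

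Markers of the cells that make or follow these chemokines were measured in the same libraries. After TAC in HCN4F hearts, 0 of 10 macrophage markers, 0 of 7 resident macrophage markers, 0 of 5 tested neutrophil markers and 0 of 3 tested T cell markers were called. Summed macrophage markers were 155 to 264 CPM in HCN4F-TAC, 165 to 217 in HCN4F-Sham, 167 to 198 in WT-Sham and 158 to 159 in WT-TAC. Resident macrophage markers summed to 84.4 to 106, 101 to 134, 84.7 to 102 and 69.6 to 94.6 CPM in the same order, and T cell markers to at most 3.42 CPM in any library. The summed monocyte markers were 24.8 to 37.0 CPM in HCN4F-TAC and at most 19.4 CPM elsewhere, beside the values of Ccl2 and Ccl12 given above, and the sum was carried by Vcan, a matrix proteoglycan that fibroblasts make as well, which was the 1 of 4 tested markers called (1.38, adjusted p 3.98e-06). The neutrophil markers S100a8 (2.73, adjusted p 0.0248) and S100a9 (2.91, adjusted p 0.0409) rose after TAC in WT hearts, where no member was called. Between the Sham groups, where 7 of 8 members were higher in HCN4F, 5 of 5 tested neutrophil markers were higher too (median log2 fold change 2.24) and 0 were called. The neutrophil sum was 1.96 to 2.97 CPM in HCN4F-Sham and 0.574 to 1.31 CPM in WT-Sham, without overlap. Of single genes, 3.89% were higher without overlap in this comparison. In HCN4F-TAC the sum was 1.82 to 5.79 CPM and in WT-TAC 2.43 to 3.74 CPM. Beside the fall of Ccl11, the eosinophil markers summed to at most 0.183 CPM in any library, with Epx and Ear1 at 0 reads throughout, and 0 of 5 listed in the table could be tested. Fibroblast markers, 1 of 8 called (Col1a1, 1.14, adjusted p 0.00125), summed to 1020 to 1651 CPM in HCN4F-TAC and 831 to 1072 CPM in HCN4F-Sham, ranges that overlapped. In WT-TAC the sum was 801 to 960 CPM and in WT-Sham 876 to 890 CPM, both below HCN4F-TAC. Between the TAC groups, where 7 of 8 members were higher in HCN4F, 8 of 8 fibroblast markers (median log2 fold change 0.58), 4 of 4 tested monocyte markers (0.84), 9 of 10 macrophage markers (0.53) and 6 of 7 resident macrophage markers (0.31) were higher as well, and 0 of each list were called. Mesothelial markers summed to 4.77 to 15.9 CPM over all libraries and 0 of 3 tested were called. Of 4 tested atrial markers, Dkk3 rose (2.09, adjusted p 0.00993) and Stard10 fell (-1.12, adjusted p 0.000491) in HCN4F hearts after TAC, and 0 of 7 ventricular markers were called. These called markers were also called without HCN4F-TAC replicate 2, at 1.36 for Vcan, 1.02 for Col1a1, 1.54 for Dkk3 and -1.04 for Stard10. The part of these cell types in the chemokine levels was not tested.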

How the data were processed

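RNA was isolated from the left ventricle with a kit for fibrous tissue, and polyA-selected libraries were sequenced on an Illumina platform. The authors deposited raw read counts per gene for each sample, and these were not normalized. The submitters' processing notes name the build GRCm38; the aligner, the counting program, the use of strand and the treatment of reads that match several genes are not given in the sources used here. Columns were matched to samples by their labels; 14 were used and 2 further columns, whose names fit no sample here, were left out.

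Genes were kept with filterByExpr by group, which left 15292 of 49315. Counts were scaled by TMM in edgeR 4.0.16 (R 4.3.3). All groups were fitted in 1 model with edgeR's quasi-likelihood test (robust), and p-values were adjusted by Benjamini-Hochberg over all tested genes. The threshold for a call was an adjusted p under 0.05 and a log2 change of more than 1 in size; the interaction used the adjusted p alone. Correlations used log2 CPM with a prior count of 2. Exon lengths and positions were taken from GENCODE release 21 (99.3% of gene IDs found), promoter windows from RefSeq. Motifs were searched as letters on both strands. Libraries of a group differed by more than counting noise (chi-square per gene of 6.59 to 66.0). Intervals on log2 fold changes are at 95%, and the limit of 3 reads covers counting error only. The steps were tested on simulated data.

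The members and the gene lists were chosen with earlier results of these data known. Named in the text are all 8 members, the listed genes that were called, the receptors that bind members, and for Ccl2 and Ccl11 the 3 other genes of highest r among those with a mean of 1 CPM or more. A few genes that this rule would name are not reported here. Tnf, Il1b, Csf1, Il13, Il13ra1, Tnip1, Epx and Ear1 were named after their values were seen. The alternatives were DESeq2 1.42.0, fitted either to all groups or only to those compared, edgeR on only the groups compared, size factors of DESeq2, testing without a filter or from a mean of 1 CPM upward, non-robust estimation, the adjusted p alone, the replicate number as a block, and each library left out in turn. The fit of genes other than the members without HCN4F-TAC replicate 2 and the counting intervals of ratios, from Clopper-Pearson bounds, were added once the data had been seen. Plots were made in matplotlib 3.10.9. The other measurements of the study were not analysed here.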

Additional observations from a re-analysis of the deposited data

Results flagged for a closer look

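In WT-Sham, Ccl6 stood at 8.45 CPM in replicate 2, while the other 3 libraries lay between 11.5 and 11.9 CPM. The gap to the nearest of them was 0.876 of the range of the group. With 24 groups of 4 libraries examined, chance alone is expected to single out about 1 in 20.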

How the results depend on the processing

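The numbers of called members in WT hearts after TAC (0) and in the interaction (0) were the same in all alternatives run. In HCN4F hearts after TAC, 2 to 3 members were called in the alternatives that left out no single library, and 1 to 3 with single libraries left out; the count was 1 (Ccl11) when the library left out was replicate 2, 3 or 4 of HCN4F-Sham, replicate 4 of WT-Sham, or replicate 1 or 4 of HCN4F-TAC. Between the Sham groups DESeq2 on all groups, DESeq2 on the compared groups and the fit without a filter each called 1 member, Ccl7, and leaving out libraries gave 0 to 1. Between the TAC groups the same 3 alternatives each called 1 member, Ccl7, and leaving out libraries gave 0 to 1. Over the alternatives the adjusted p of Ccl11 in HCN4F hearts ranged from 6.04e-09 to 0.00593, of Ccl12 from 0.0118 to 0.147 and of Ccl2 from 0.000487 to 0.167. At a mean CPM of at least 1, Ccl8, Ccl12 and Ccl24 were not tested. In WT hearts after TAC, DESeq2 gave no adjusted p for Ccl12, nor for Ccl2 on the compared groups.

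Directions turned in a few values that were not called. With the replicate block Ccl12 in WT hearts was at 0.36 in place of -0.25. Leaving out single libraries gave ranges of -1.87 to 0.35 for Ccl12, -0.84 to 1.16 for Ccl2, -0.00496 to 0.48 for Ccl7 and -0.37 to 0.13 for Ccl9 in WT hearts after TAC, of -0.026 to 0.73 for Ccl12 between the Sham groups, and of -0.23 to 0.21 for Ccl6 and -0.048 to 1.95 for Ccl2 in the interaction. Without 1 WT-TAC library the other is assumed to vary like the remaining groups. The replicate numbers did not pair the samples (correlations of -0.12 to 0.16 between deviations with the same number); the replicate block gave 3 called members in HCN4F hearts after TAC (Ccl2, Ccl11 and Ccl12) and 0 in each other comparison.

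Depth limits Ccl8, Ccl12 and, after TAC, Ccl11, whose values rest on 4 to 28, 2 to 41 and 2 to 26 reads.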
